A study of Mus musculus with 16 samples.

Results

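A set of 5 genes of small noncoding RNAs made by RNA polymerase III (Pol III) were followed through 16 libraries of Sox2 RNA immunoprecipitation from mouse embryonic stem cells (mESC). They are Rn7sk (7SK RNA), Rn7s1 and Rn7s2 (copies of 7SL RNA), Rmrp (the RNA of RNase MRP) and Rpph1 (the RNA of RNase P). The rule took all rows of the count table that the GENCODE annotation assigns to these symbols, which found 5 of 5 symbols among 53379 genes, with Rmrp on 2 rows. The set was selected on measured values, the UMI counts of 1 library, the formaldehyde input of plate 4, which is rich in such RNA. The levels in that library are therefore given as a description, with no test, and the tests read for the members leave it out.

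Male mESC were grown in medium with serum, LIF and the inhibitors PD0325901 and CHIR99021, which hold the cells in the pluripotent state. In UV-RIP the cells were crosslinked with UV light, which joins protein to RNA in direct contact. In fRIP the crosslinker was formaldehyde, and RNA held through a second protein can then be recovered too. Each crosslinker has 4 plates of cells, numbered 3 to 6, and each plate gave an immunoprecipitate of Sox2 (IP) and an input library from the same lysate, so that there are 4 IP and 4 input libraries per crosslinker. No agent other than the crosslinker differs between the groups, and none of the 16 libraries is an IP with a control antibody. The plates of the 2 crosslinkers are different plates, so crosslinker and plate cannot be told apart. The values are counts of unique molecular identifiers (UMIs) over gene bodies, where 1 UMI stands for 1 original RNA fragment. Totals ran from 12456298 to 21211537 UMIs per library, and levels are given as CPM, the UMIs of a gene scaled to a library total of 1000000. These are bulk samples, in which fewer cells of a type and less RNA per cell cannot be told apart.

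The identity of the cells was checked in the 8 inputs. Of 8 markers of mESC, 7 were at 10 CPM or more in every input, and their summed level was 2060 to 4178 CPM. The exception was Sox2 itself, which was listed at 0 UMIs in all 16 libraries. Its gene body lies within that of Sox2ot on the same strand, and Sox2ot had 682 to 1601 UMIs per library. Of 3 neural markers 1 reached 10 CPM in every input, Nes with 12.9 to 18.8 CPM, and no marker of primitive endoderm, mesoderm, trophoblast or fibroblasts did.

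As background, Pol III makes short untranslated RNAs that mostly work inside a protein complex. 7SK RNA, with Larp7, Mepce and Hexim proteins, holds the kinase P-TEFb (Cdk9 with a cyclin T) in an inactive form, and so restrains the release of paused RNA polymerase II. 7SL RNA is the scaffold of the signal recognition particle, which brings ribosomes that make secreted proteins to the endoplasmic reticulum. RNase P trims the 5′ end of tRNA precursors and RNase MRP cuts the precursor of ribosomal RNA, and their 2 RNAs share most of their protein partners.

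Where these RNAs lie decides which reads can be assigned to them, since the authors kept only reads that map to 1 place. On GRCm38, Rn7sk (ENSMUSG00000065037.1) covers chr9:78175303-78175633 on the minus strand, 331 bases with no overlapping gene. Rn7s1 (ENSMUSG00000099021.1) covers chr12:69159295-69159594 on the plus strand, 300 bases, and starts 109 bases from Rps29 on the opposite strand. Rn7s2 (ENSMUSG00000099250.1) covers chr12:69361182-69361481 on the minus strand, also 300 bases. Each 7SL copy is overlapped on its own strand by 2 annotated miRNA models, which leave 153 bases free and were at 0 UMIs in every library. Rpph1 (ENSMUSG00000092837.1) covers chr14:50807449-50807767 on the minus strand, 319 bases, of which 284 lie under the protein-coding gene Ccnb1ip1 on the same strand. Rmrp has 2 models on the minus strand of chromosome 4, a lincRNA of 281 bases (ENSMUSG00000115420.1, chr4:43492783-43493063) and a ribozyme of 271 bases (ENSMUSG00000088088.1, chr4:43492788-43493058) that lies wholly inside it. The protein-coding gene Ccdc107, on the opposite strand, covers 164 bases of the longer one.

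The sequences below are from the GENCODE vM21 transcripts on GRCm38, given as DNA from 5′ to 3′, and are shown because they bear on what could be counted. In Rn7sk (bases 1 to 300 of 331) capitals mark the 52 bases that are in no 34-mer shared with another annotated gene. In Rmrp capitals mark the 10 bases that only the longer model holds. In Rpph1 (bases 1 to 60) capitals mark the 35 bases outside Ccnb1ip1.
Rn7sk: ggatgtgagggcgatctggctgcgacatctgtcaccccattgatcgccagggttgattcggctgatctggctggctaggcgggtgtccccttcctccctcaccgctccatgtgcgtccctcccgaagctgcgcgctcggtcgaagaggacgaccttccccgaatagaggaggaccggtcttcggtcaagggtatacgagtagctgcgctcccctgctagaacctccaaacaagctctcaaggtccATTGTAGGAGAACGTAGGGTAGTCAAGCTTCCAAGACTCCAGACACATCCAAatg
Rmrp: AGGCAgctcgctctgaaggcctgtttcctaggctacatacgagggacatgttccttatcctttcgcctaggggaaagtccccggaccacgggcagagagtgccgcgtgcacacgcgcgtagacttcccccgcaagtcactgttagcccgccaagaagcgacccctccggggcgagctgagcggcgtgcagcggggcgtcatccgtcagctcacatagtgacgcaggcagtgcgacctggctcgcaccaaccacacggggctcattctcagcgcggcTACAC
Rpph1: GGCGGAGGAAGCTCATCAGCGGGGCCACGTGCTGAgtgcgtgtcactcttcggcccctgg

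Reads were 34 bases long at each end, so the 34-mers of each RNA were looked up in all other annotated transcripts. For Rn7sk 213 of 298 34-mers (71.5%) occur in another gene, spread over 17 genes, here called its relatives. Rn7s1 and Rn7s2 are identical to each other in 300 of 300 bases. For Rn7s1 and for Rn7s2 all 267 of 267 do, in the other copy and in 16 further genes. For Rpph1 200 of 286 (69.9%) occur in Ccnb1ip1 or Rprl3, and for the longer Rmrp model 238 of 248 (96.0%) occur in another gene, the shorter model among them. A read pair can still be unique where either end is, and the genome outside the transcripts was not used here. Rn7s1 and Rn7s2 hold no 34-mer of their own, so a pair that matches wholly inside either copy has no unique end. Which reads gave their UMIs was not tested, and their counts are not taken as the level of 7SL RNA. The counts of Rmrp and Rpph1 depend on how the counting treated overlapping genes, which is not given in the sources used here. The relatives of 7SK together held 0.0795% to 0.167% of the UMIs of Rn7sk and its relatives, whereas the 16 relatives of 7SL held 42.86% to 79.49% of the UMIs of their family. Of the UMIs kept, those of the 7SK family thus lay almost wholly on Rn7sk, and those of the 7SL family were split. How the reads dropped for mapping to several places would divide is not known.

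**Figure D1:**
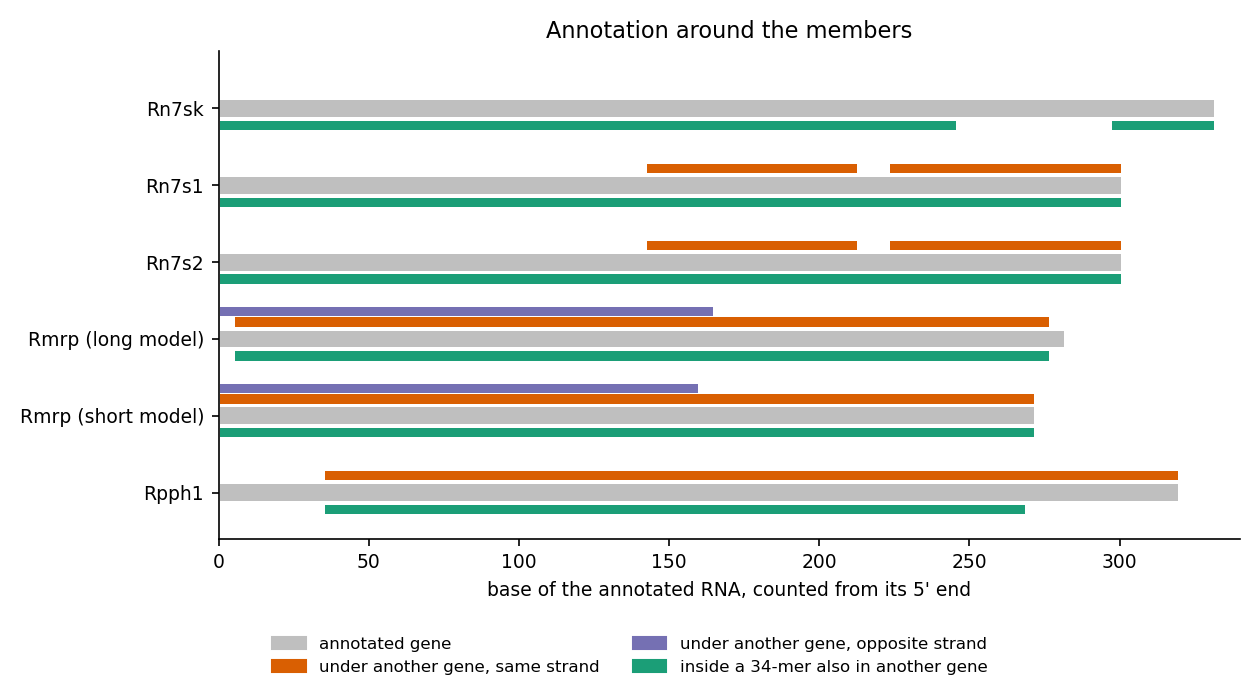
Annotation around the 5 RNAs, with Rmrp as its 2 models; the horizontal axis is the base counted from the 5′ end, gray bars are the annotated genes, orange and purple bars the stretches under another gene on the same or the opposite strand, and green bars the stretches inside a 34-mer that also occurs in another gene. Rn7sk has no overlapping gene, Rn7s1 and Rn7s2 are covered by shared 34-mers over all 300 bases, and Rpph1 is free of Ccnb1ip1 only over its first 35 bases.

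Rn7sk was among the genes with the most UMIs per length in every library and carried nearly all UMIs of the set. Per length it ranked between 1 and 3 of all genes in the 16 libraries, at 5048 to 84230 CPM per kb. It made up 99.807% to 99.941% of the UMIs of the 5 genes and 98.37% to 99.40% of all UMIs on genes annotated as miscellaneous RNA. Rpph1 was at 1.26 to 110.6 CPM per kb, and its rank ran from 96 to 6400. Per length Rn7s1 lay between 0.386 and 26.9 and Rn7s2 between 0.964 and 34.7 CPM per kb. Within a library the order of the levels per length was thus led by Rn7sk everywhere, by more than any difference between libraries. The order of the other 3 was not fixed, since their ranges over libraries overlap. Both models of Rmrp had 0 UMIs in 16 of 16 libraries. For UMIs assigned to a model, this allows up to 0.141 to 0.241 CPM (3 counts per library, counting error only). The shorter model lies wholly inside the longer model on the same strand, so a read there lies in both. How the counting treated such reads is not given, so the 0 UMIs set no limit on the level of Rmrp RNA.

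In UV-RIP, 7SK RNA was not called in the Sox2 IP in either direction. Rn7sk had 2088, 2231, 1671 and 1751 CPM in the IP of plates 3, 4, 5 and 6. In the inputs of the same plates it had 2119, 1794, 2141 and 2041 CPM. The groups overlap, the IP being higher on plate 4 and lower on the others. The log2 ratio of IP to input in the 4 pairs was -0.02, 0.31, -0.36 and -0.22, a mean of -0.07 ± 0.29 (SD, n = 4), and an exact two-sided sign-flip test of the pairs gave p = 0.625, where the smallest possible is 0.125. With edgeR's quasi-likelihood test across all genes the log2 fold change was -0.07 (SE 0.03, Benjamini-Hochberg adjusted p = 0.0978), against a median of -0.17 over all genes tested. The model's SE is far below the spread between plates, and with edgeR's robust fit it was 0.12 (adjusted p = 0.743). Under TMM scaling, which moves the median of all genes to 0.01, the log2 fold change turned to 0.11 (adjusted p = 6.14e-04), which is under the 1.5-fold limit of a call.

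**Figure D2:**
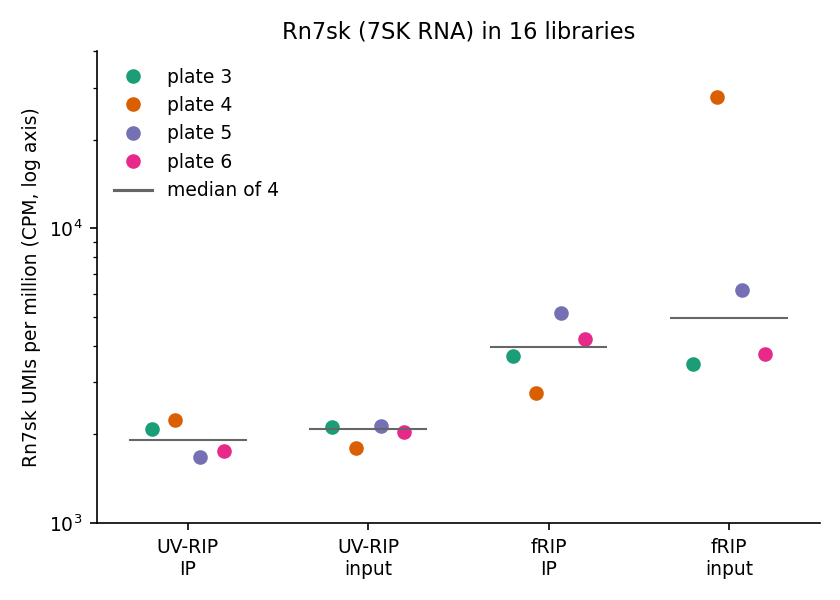
Rn7sk in each of the 16 libraries; the vertical axis is CPM on a log axis, points are libraries colored by plate, and lines are medians of 4. The 8 UV-RIP libraries sit between 1671 and 2231 CPM, the fRIP libraries higher, and the fRIP input of plate 4 stands alone at 27880.

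Of the 4 genes that passed the filter of 3 UMIs in at least 1 library, none was called in UV-RIP, where a call needs an adjusted p below 0.05 and a fold change above 1.5. Among all 22936 genes tested 5.53% were called lower and 0.68% higher in the IP. This balance depends on the scaling, since 425 genes were called lower and 505 higher under TMM and 235 and 288 in DESeq2 with median-of-ratios. In edgeR 1 of the 4 had an unadjusted p below 0.05, as did 40.6% of all genes. DESeq2 called 0 of 4 with either scaling, and of all genes 3.85% lower and 0.34% higher by total UMIs, or 1.02% lower and 1.26% higher by median-of-ratios. Rmrp, at 0 throughout, could not be tested.

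The 7SL copies had few UMIs in UV-RIP. Rn7s1 had 2, 6, 3 and 2 UMIs in the IP of plates 3 to 6 and 4, 3, 6 and 6 in the inputs. Rn7s2 had 6, 12, 6 and 8 UMIs in the IP and 7, 15, 5 and 4 in the inputs. For both copies the groups overlap. With their 16 relatives the 2 rows had 0.985, 2.44, 2.07 and 2.37 CPM in the IP and 3.05, 3.60, 3.10 and 2.39 in the inputs. This sum was lower in the IP on each plate, by little on plate 6, and was not tested. The log2 fold changes were -0.80 for Rn7s1 (SE 0.62, adjusted p = 0.346 in edgeR) and -0.20 for Rn7s2 (SE 0.40, adjusted p = 0.783). As fold changes these are 0.575 (95% interval 0.25 to 1.33) and 0.87 (0.505 to 1.5). Both intervals hold values on either side of 1. Since the sequences are identical, the 2 rows are not separate evidence, and neither is a measure of the level of 7SL RNA.

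Rpph1, the catalytic RNA of RNase P, had 20, 19, 20 and 8 UMIs in the UV-RIP IP and 5, 7, 14 and 13 in the inputs. The IP was higher on 3 plates of 4, with plate 6 the other way. The log2 fold change was 0.51 (SE 0.30, interval -0.08 to 1.09, adjusted p = 0.194 in edgeR). With single plates left out the value moved in both directions: without plate 6 it was 0.92 (adjusted p = 0.0223) and called, and it was 0.17 without plate 3 (adjusted p = 0.804) and 0.30 without plate 4 (adjusted p = 0.594). Ccnb1ip1, which covers most of the same bases, had 11 to 24 UMIs per library and was lower in the UV-RIP IP (log2 fold change -0.66, adjusted p = 0.0442 in edgeR).

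**Figure D3:**
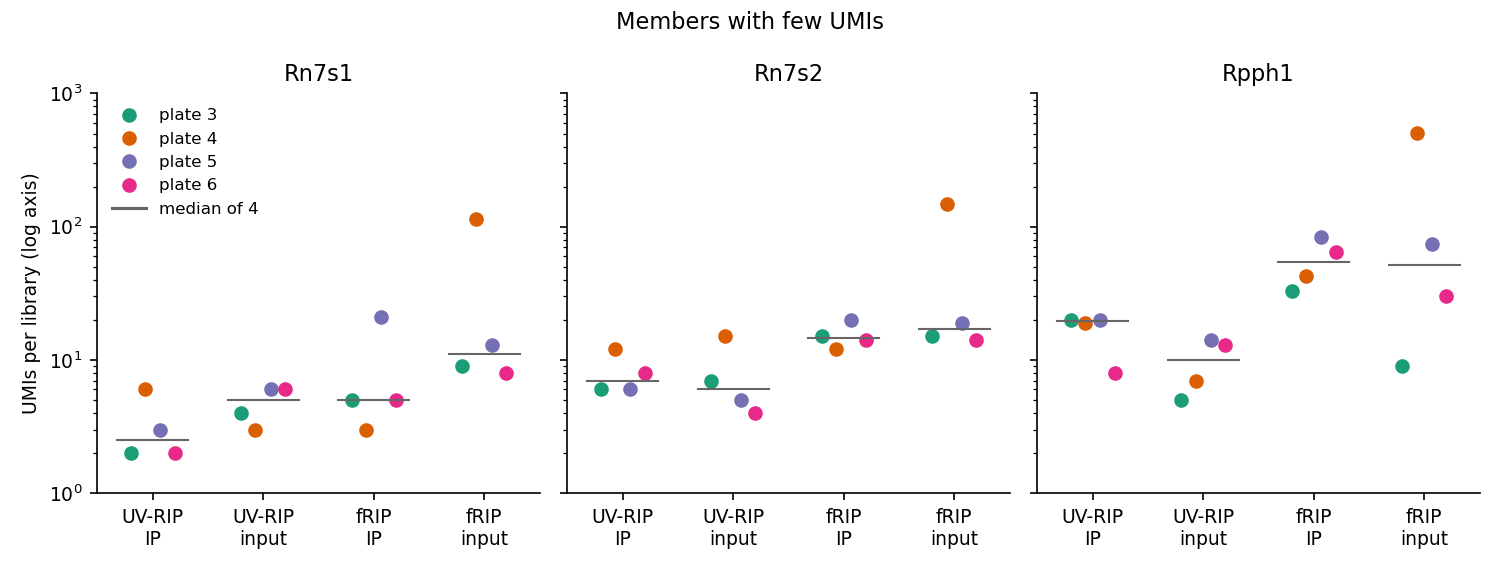
Rn7s1, Rn7s2 and Rpph1 in each of the 16 libraries; the vertical axis is UMIs per library on a log axis, points are libraries colored by plate, and lines are medians of 4. Most libraries hold fewer than 100 UMIs of each, and the fRIP input of plate 4 is the highest library of all 3 panels with 115, 148 and 502 UMIs; Rmrp, at 0 in all 16 libraries, is not drawn.

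In fRIP, Rn7sk was higher than in UV-RIP in both the IP and the input. It had 3701, 2768, 5173 and 4200 CPM in the IP of plates 3 to 6 and 3466, 27880, 6155 and 3749 CPM in the inputs. All 8 fRIP libraries lie above all 8 UV-RIP libraries. Within plates 3, 5 and 6 the log2 ratios of IP to input were 0.09, -0.25 and 0.16, a mean of 0.00 ± 0.22 (SD, n = 3). The edgeR test on these plates gave a log2 fold change of 0.00 (SE 0.04, adjusted p = 0.972). The exact sign-flip test gave p = 1, and 3 pairs cannot go below 0.25.

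On these 3 plates none of the 4 genes tested was called, while 9.41% of all genes were called lower and 7.8% higher. Of the 4, 0 had an unadjusted p below 0.05 in edgeR, against 46.4% of all genes. DESeq2 called 0 with either scaling, and of all genes 7.57% lower and 5.31% higher by total UMIs, or 6.32% lower and 6.31% higher by median-of-ratios. In the IP of plates 3, 5 and 6 Rn7s1 had 5, 21 and 5 UMIs and in the inputs 9, 13 and 8. Rn7s2 had 15, 20 and 14 UMIs in the IP and 15, 19 and 14 in the inputs. As CPM, with the larger IP libraries taken into account, the log2 ratios were -1.05, 0.07 and -1.09 for Rn7s1 and -0.20, -0.54 and -0.41 for Rn7s2, which was lower in the IP on each of these plates (exact two-sided sign-flip p = 0.25, the smallest that 3 pairs can give). The log2 fold changes of the 2 copies were -0.45 (SE 0.41) and -0.40 (SE 0.31), which as fold changes are 0.731 (95% interval 0.418 to 1.28) and 0.76 (0.501 to 1.15). With their relatives the 2 rows had 2.99, 7.02 and 4.59 CPM in the IP of these plates and 3.90, 11.3 and 5.21 in the inputs, which was not tested.

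Rpph1 had 33, 84 and 65 UMIs in the fRIP IP of plates 3, 5 and 6 and 9, 74 and 30 in the inputs. The log2 ratios were 1.67, -0.44 and 0.71, so that plate 5 goes against the others. The log2 fold change was 0.24 (SE 0.18, adjusted p = 0.405 in edgeR), and without plate 5 it was 0.99 (adjusted p = 6.11e-04) and called. It was 0.00 without plate 3 (adjusted p = 1) and 0.05 without plate 6 (adjusted p = 0.939), so that in both crosslinkers the value of Rpph1 depended on which plates were used.

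The difference of the fold changes between fRIP, without plate 4, and UV-RIP was tested as an interaction over 14 libraries. None of the 4 genes passed an adjusted p of 0.05 in edgeR, where 9.18% of all genes passed with a lower and 19.7% with a higher value in fRIP. At an unadjusted p of 0.05 the count was 0, against 35.6% of all genes. DESeq2 called 0 with either scaling, and of all genes 6.02% lower and 13.8% higher by total UMIs, or 10.4% lower and 8.79% higher by median-of-ratios. The difference was 0.07 for Rn7sk (interval -0.03 to 0.18), 0.35 for Rn7s1 (-1.06 to 1.75), -0.19 for Rn7s2 (-1.17 to 0.79) and -0.26 for Rpph1 (-0.93 to 0.41). For Rn7sk an exact permutation test of the pair ratios, 3 against 4 and two-sided, gave p = 0.771. Its edgeR call turned on single plates: without fRIP plate 5 or without UV-RIP plate 4 the difference was 0.20 (adjusted p = 7.00e-04 and 8.24e-04).

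The inputs themselves differed between the crosslinkers. Rn7sk was at 4457 ± 1478 CPM in the fRIP inputs of plates 3, 5 and 6 (SD, n = 3) and at 2024 ± 159.1 CPM in the UV-RIP inputs (SD, n = 4), and the groups do not overlap. The log2 fold change was 1.14 (SE 0.09, fold 2.2 with a 95% interval of 1.94 to 2.5, adjusted p = 3.05e-14 in edgeR). With the robust fit the adjusted p was 0.00855, and an exact two-sided permutation test, 3 against 4, gave p = 0.0286, the smallest it can give. In edgeR 3 of the 4 genes were called higher in the fRIP inputs, where 9.77% of all genes were called higher and 9.3% lower. At an unadjusted p below 0.05 the count was 4 of 4, against 47.2% of all genes. DESeq2 called 2 of the 4 with total UMIs as size factors, where it called 8.11% of all genes higher and 7.06% lower, and 1 with median-of-ratios, where it called 7.3% higher and 7.62% lower.

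The smaller members of the set gave less firm values in this comparison. Rpph1 was at 2.71 ± 2.43 CPM in the 3 fRIP inputs and 0.741 ± 0.310 in the 4 UV-RIP inputs (SD), and the groups overlap, plate 3 of fRIP having 0.585 CPM. Its fold was 3.51 (adjusted p = 1.66e-04 in edgeR), but without fRIP plate 5 the log2 fold change fell from 1.81 to 0.84 and was not called (adjusted p = 0.0791), with edgeR's robust fit the adjusted p was 0.164, and the exact permutation test gave p = 0.114. Rn7s1 had 8 to 13 UMIs in the 3 fRIP inputs and 3 to 6 in the UV-RIP inputs, with a log2 fold change of 0.92 (SE 0.43, adjusted p = 0.0782 in edgeR) and no overlap in CPM (exact permutation p = 0.0286). Rn7s2 had 14 to 19 UMIs in the 3 fRIP inputs and 4 to 15 in the UV-RIP inputs, with a log2 fold change of 0.90 (SE 0.37, adjusted p = 0.0439 in edgeR) and an exact permutation p of 0.114. The call of Rn7s2 was lost under 10 of the 14 alternatives that leave out fRIP plate 4, among them the omission of any one of fRIP plates 3, 5 and 6 or of UV-RIP plates 3, 5 and 6, with log2 fold changes of 0.66 to 1.00. Gapdh, the mRNA of a glycolytic enzyme taken as a reference, was also higher in the fRIP inputs (log2 fold change 0.94, adjusted p = 2.63e-16), and the nuclear RNA Malat1 was at -0.09 (adjusted p = 0.155). Crosslinker and plate cannot be told apart in this comparison.

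**Figure D4:**
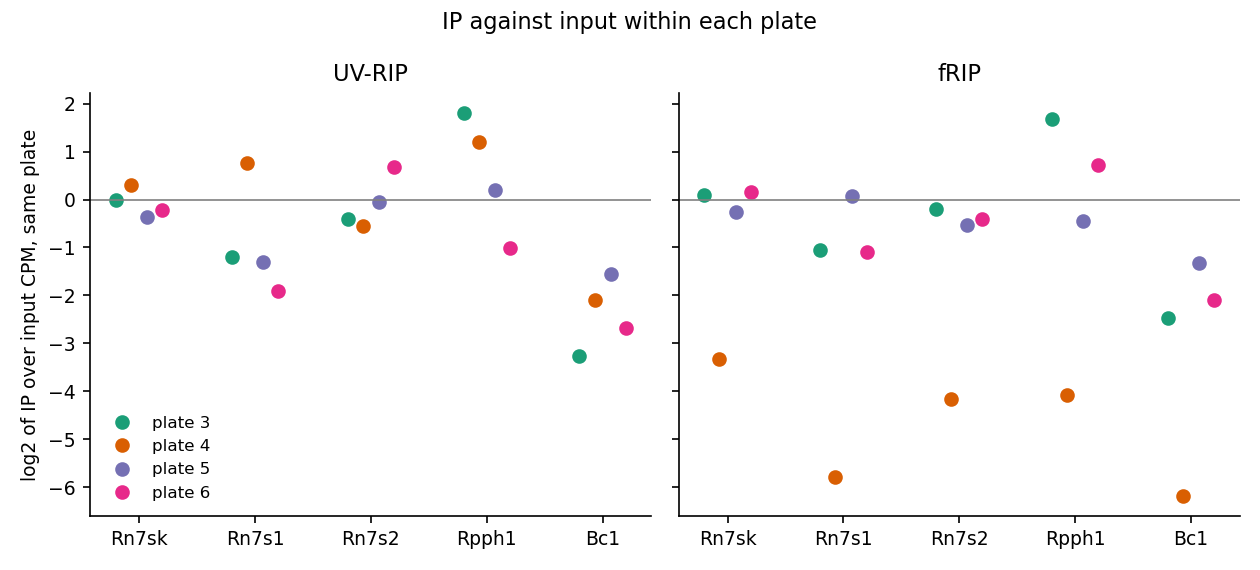
IP against input within each plate; the vertical axis is the log2 ratio of IP to input CPM, the horizontal axis the gene, and points are plates. For Rn7sk all UV-RIP plates and fRIP plates 3, 5 and 6 lie between -0.36 and 0.31, fRIP plate 4 lies at -3.33, and Bc1, a further Pol III RNA shown for comparison, is below 0 on all 8 plates.

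The fRIP input of plate 4 held more of every detected member than any other library, which is what chose the set and is described only. It had 396592 UMIs on Rn7sk, against 51092 to 85061 in the other 3 fRIP inputs, so that Rn7sk alone took 2.788% of the library (95% Wilson interval 2.779% to 2.797%, counting error only). It held 115 UMIs of Rn7s1, 148 of Rn7s2 and 502 of Rpph1. As CPM over the median of the other 3 fRIP inputs, the ratio was 7.44 for Rn7sk, 10.1 for Rn7s2, 13.8 for Rn7s1 and 16 for Rpph1. The IP of the same plate did not share the excess: its CPM over the median of the other 3 fRIP IP libraries was 0.659, 0.690, 0.517 and 0.582 in the same order.

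The excess was shared by some other short RNAs. Of 9972 genes with 100 or more UMIs in it, the median ratio was 0.971, and 36 genes had a ratio of 4 or more, the 4 members among them. Of the 36, 24 were shorter than 500 bases, the 4 members included, among 60 such genes compared. Since the minimum of 100 UMIs was set in this same library, a low gene such as Rn7s1 entered only because it was high there, and these counts are a description from which nothing is read. Of the 36, 8 were histone H4 genes, a count given without the number of such genes compared, so that no share can be read from it. The largest ratio outside the set was that of n-R5-8s1, an rRNA gene with 142 UMIs in this input and 0 to 2 in the other 3 fRIP inputs, too few there for a fold. The next were 42.8 for Gm25541, 25.9 for Rnu12, 21.8 for Gm24514 and 21.1 for Gm26316, where Gm25541, Rnu12 and Gm26316 are snRNAs and Gm24514 shares 34-mers with 7SL. The ratio was 1.10 for Gapdh and 0.921 for Malat1. The part of RNA length or of library preparation in this was not tested.

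**Figure D5:**
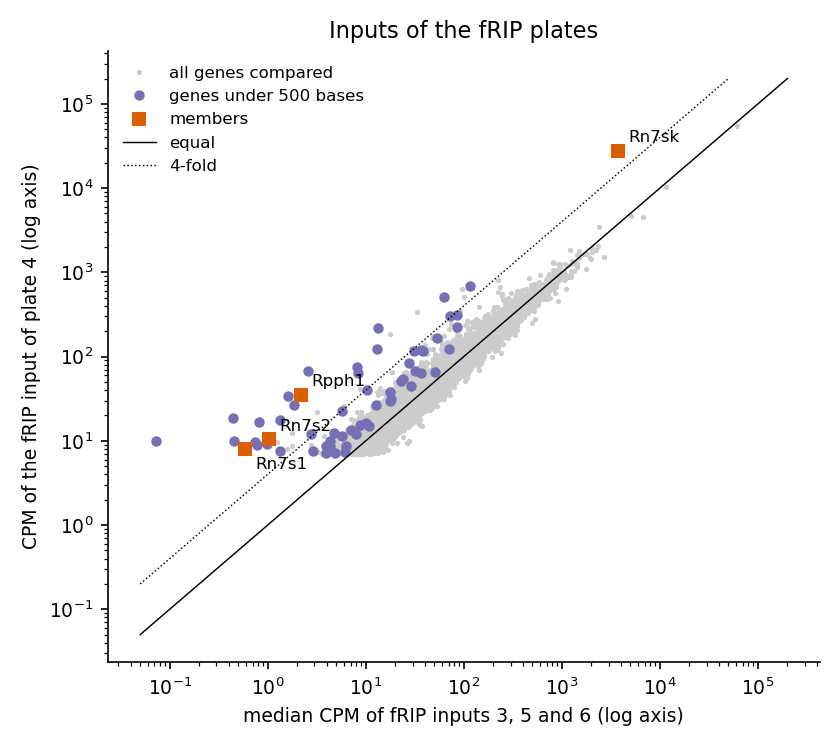
The fRIP input of plate 4 against the other fRIP inputs; the axes are CPM in that input and the median CPM of the inputs of plates 3, 5 and 6, both on log axes, gray points are the 9972 genes with 100 or more UMIs in it, purple points those under 500 bases, and orange squares the detected members. The solid line marks equal values and the dotted line a 4-fold excess; Rn7sk, Rn7s1, Rn7s2 and Rpph1 lie above the dotted line.

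Because of that library, the fRIP values over all 4 plates differ from those without it. The log2 fold changes of IP against input over all 4 fRIP plates, given with no test, were -0.71 (SE 0.32) for Rn7sk, -2.17 (SE 0.55) for Rn7s1, -1.72 (SE 0.43) for Rn7s2 and -1.21 (SE 0.48) for Rpph1. Without plate 4 they were 0.00, -0.45, -0.40 and 0.24. On plate 4 alone the log2 ratios were -3.33, -5.79, -4.16 and -4.08, so the lower IP values over 4 plates came with the high input of that plate. Rmrp stayed at 0 UMIs in this input too. Ccdc107, which lies across Rmrp on the opposite strand and was named after its values were seen, had 2612 UMIs there, against 185 to 295 in the other 3 fRIP inputs, a ratio of 10.5. The strand setting of the counting is not given in the sources used here, and without strand, reads from Rmrp and Ccdc107 could not be told apart over the 164 bases they share.

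Other Pol III RNAs were taken from a list that held 186 genes of the table, 180 of them 5S rRNA genes, of which 21 had any UMI and which summed to 0 to 8 UMIs per library. Of the list 5 genes were tested, Bc1, Rn7s6, Vaultrc5, Rny1 and Rny3. In UV-RIP 1 of 5 was called lower and 0 higher, where 5.53% of all genes were called lower, with a list median of -1.16 against -0.17 for all genes. That median is the value of Rny3 (SE 1.03, not called), from 1 to 2 UMIs in each UV-RIP IP and 0 to 5 in each input. The gene called lower was Bc1, a short RNA known for its repression of translation in neurons. It had 13, 29, 43 and 21 UMIs in the UV-RIP IP and 109, 105, 102 and 107 in the inputs, without overlap. Its log2 fold change was -2.26 (SE 0.14, adjusted p = 3.26e-57 in edgeR), a level in the IP of 0.208 times the input. The log2 ratios of its 4 UV-RIP pairs ran from -3.26 to -1.56, a spread that the model's SE does not measure. On fRIP plates 3, 5 and 6, 3 of 5 were called lower, against 9.41% of all genes, Bc1 at -1.79 (SE 0.11), and the Y RNAs Rny1 and Rny3, which are scaffolds of the Ro particle, at -3.67 (SE 0.97) and -4.31 (SE 1.17) from 0 to 2 UMIs in each IP and 3 to 12 in each input. Rn7s6, a further 7SL copy, was at -0.68 (SE 0.70) and -0.39 (SE 0.40) and not called, nor was Vaultrc5. In the fRIP input of plate 4 the ratio to the other fRIP inputs was 16.7 for Bc1 and 13.3 for Rn7s6. Differences between these genes and the members were not tested. In the fRIP inputs without plate 4, 3 of 5 were called higher than in the UV-RIP inputs, against 9.77% of all genes, Bc1 by 0.94, Rn7s6 by 1.30 and Rny1 by 1.86 on the log2 scale.

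The mRNAs of the protein partners were listed by complex, and their counts of genes called lower stand against 5.53% of all genes in UV-RIP, a share that TMM scaling lowers, and 9.41% on the 3 fRIP plates. For the 7SK complex (Larp7, Mepce, Hexim1, Hexim2, Cdk9, Ccnt1 and Ccnt2) 0 of 7 were called in UV-RIP, with a median log2 fold change of -0.29, and 2 of 7 were called lower on fRIP plates 3, 5 and 6, with a median of -0.41. For the signal recognition particle and its receptor 2 of 9 were called lower in UV-RIP, Srp54a at -0.71 and Srp19 at -0.65, both subunits of the particle, and 5 of 9 on the 3 fRIP plates, with medians of -0.43 and -0.61. For the proteins of RNase P and RNase MRP 1 of 10 was called lower in UV-RIP, Rpp38 at -0.64, and 7 of 10 on the 3 fRIP plates, with medians of -0.30 and -0.69 against -0.17 and -0.02 for all genes. For Pol III and its factors 4 of 29 were called lower in UV-RIP, among them Snapc5 at -0.79, a subunit of the complex that recognizes the promoters of 7SK and of snRNA genes, Ssb at -0.70, the La protein that binds the 3′ ends of new Pol III transcripts, and Gtf3c6 at -0.66, a subunit of TFIIIC. The median of these 29 was -0.16, near that of all genes, and their values ran from -0.79 to 0.42. On the 3 fRIP plates 6 of 29 were called lower, with a median of -0.16. No gene of these 4 lists was called higher in either comparison by edgeR, where 0.68% of all genes were called higher in UV-RIP and 7.8% on the 3 fRIP plates. In the same order of lists, the fRIP inputs without plate 4 were set against the UV-RIP inputs. There 3 of 7, 1 of 9, 2 of 10 and 4 of 29 were called higher, against 9.77% of all genes. Called lower were 0, 1, 0 and 1, against 9.3%. For the difference of the fold changes 2, 5, 5 and 6 were lower, against 9.18%, and 1, 0, 0 and 6 higher, against 19.7%. Whether the lists differ from the members was not tested.

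The genes whose levels were most like those of the members over the 16 libraries were found by Pearson's r of log2(CPM + 1) among 15131 genes whose mean was at least 10 UMIs, as a description. The points share the 8 lysates and the input of plate 4, so r is also given without that library. For Rn7sk they were Hist4h4 (0.98, and 0.94 without it), Hist1h4k (0.97 and 0.91) and Gm24447 (0.97 and 0.90), the first 2 being histone H4 genes and the last sharing 34-mers with Rn7sk. For Rpph1 they were Hist4h4 (0.96 and 0.86), Gm23624 (0.94 and 0.81) and Gm24146 (0.94 and 0.78). For Rn7s1 r fell from 0.98 to 0.84 with Gm24514, from 0.97 to 0.80 with Rn7s6 and from 0.96 to 0.63 with Gm25541. For Rn7s2 r fell from 0.96 to 0.73 with Gm23153, from 0.96 to 0.64 with Gm23973 and from 0.95 to 0.58 with Rn7s6. Among the members, Rn7sk and Rpph1 had 0.95, which was 0.83 without that library and 0.77 without the 2 libraries farthest from the median of Rn7sk. Without that library Rn7s1 and Rn7s2, identical in sequence, had 0.56, and Rpph1 had 0.54 with Rn7s1 and 0.45 with Rn7s2, which were 0.36 and 0.24 without the 2 libraries farthest from the median of Rpph1. As a description, since these libraries also chose it, Hist4h4 had a log2 fold change of 1.27 between the fRIP inputs without plate 4 and the UV-RIP inputs, and of 0.28 in UV-RIP and 0.25 on fRIP plates 3, 5 and 6 for IP against input.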

How the data were processed

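RNA from Sox2 IP and input was sequenced from 8 plates of mESC. The authors mapped reads with STAR to the mouse genome (mm10 per the labels), kept uniquely mapped reads and deposited raw UMI counts for whole gene bodies of GENCODE vM16, with introns. Tool versions, the strand setting and the treatment of overlapping genes are not given in the sources used here. Annotation and sequences are from GENCODE vM21, and 50604 of 53379 identifiers matched with their version.

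Counts were tested with edgeR 4.0.16 in R 4.3.3 (glmQLFit and glmQLFTest, total UMIs as library size, a minimum of 3 UMIs in any 1 library), with adjusted p over all 22936 genes. Plate was a block for IP against input and for the difference of the fold changes. The comparison of the inputs had no block, since the crosslinkers share no plate. DESeq2 1.42.0 served as an alternative. Pairing comes from the shared lysate, and deviations of same-numbered libraries had correlations of 0.03 to 0.61. Replicates differed by more than sampling noise (chi-square per degree of freedom 1.52 or more). In simulated data for each of the 4 comparisons, all 200 changed genes were recovered. The simulation planted log2 changes of 1 or 2 in genes with more UMIs than the 7SL copies. It used a dispersion shared by all genes and no plate effects. It therefore does not show that smaller changes, or changes of genes with few UMIs, would be found. The members and gene lists were chosen with earlier results of these data known. Named genes are the members, the 3 most alike genes of each, the 5 largest ratios in the fRIP input of plate 4, up to 3 genes a list called in UV-RIP, and Malat1, Gapdh and Sox2. Bc1, Rn7s6, Vaultrc5, Rny1 and Rny3 are named as all tested genes of their list. Ccdc107, Ccnb1ip1, Rps29 and Sox2ot were named after their values were seen. The exact tests over plates and the robust edgeR fit were added after seeing the data, since the model's SE for Rn7sk was smaller than the spread between plates. Intervals cover counting error or the model only. The sequence of the 7SL copies is not reported here.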

Additional observations from a re-analysis of the deposited data

Results flagged for a closer look

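Chance sets a highest or lowest value apart from the other 3 in about 1 in 20 groups of 4. Of 24 groups looked at, 7 had such a value, but 6 of the 7 are the fRIP input of plate 4 or the ratio built on it, the values that chose the set, so this count is only a description. In the fRIP input of plate 4 the level was 27880 CPM for Rn7sk, 8.084 CPM for Rn7s1, 10.40 CPM for Rn7s2 and 35.29 CPM for Rpph1, each far above the other 3 fRIP inputs. The same library gave log2 ratios of IP to input on fRIP plate 4 of -3.33 for Rn7sk and -4.16 for Rn7s2, far below the other 3 plates. In the fRIP IP, Rn7s1 stood at 0.9900 CPM on plate 5, where it had 21 UMIs against 3 to 5 on the other plates.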

How the results depend on the processing

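The input comparison of Rn7sk kept its direction and its call under all 14 alternatives that leave out fRIP plate 4, with log2 fold changes of 0.83 to 1.29, and was 2.35 with that plate, given as a description. IP against input for Rn7sk was near 0 and changed sign. In UV-RIP, at -0.07, it was 0.11 under TMM, 0.08 with library sizes that leave out Gm26917 and Gm42418 and 0.10 with DESeq2 and median-of-ratios, and -0.20 to 0.02 with each plate left out. On fRIP plates 3, 5 and 6, at 0.00, it was -0.03 without the replicate block, -0.71 with plate 4 and -0.08 to 0.13 with each plate left out. The difference of the fold changes, at 0.07, was -0.10 under TMM, -0.05 without those 2 genes, -0.05 with DESeq2 and median-of-ratios, -0.64 with plate 4 and -0.02 to 0.20 with each plate left out. None of these was a call in IP against input.

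Among the smaller members, DESeq2 with median-of-ratios gave 0.05 for Rn7s2 in UV-RIP, and leaving out plates gave -0.40 to 0.05. For Rn7s1, leaving out plates gave -1.42 to -0.49 in UV-RIP and -1.05 to -0.27 on fRIP plates 3, 5 and 6. With plate 4, Rpph1 was -1.21 in fRIP, and the difference was -1.42 for Rn7s1, -1.59 for Rn7s2 and -1.82 for Rpph1. DESeq2 with total UMIs gave a difference of 0.01 for Rpph1. With each plate left out the differences ran from -0.25 to 0.98 for Rn7s1, -0.44 to 0.01 for Rn7s2 and -0.68 to 0.49 for Rpph1.

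Over all genes, UV-RIP calls were 1268 lower and 156 higher, and 425 and 505 under TMM, 505 and 419 without Gm26917 and Gm42418, 235 and 288 with DESeq2 and median-of-ratios, and 882 and 78 with DESeq2 and total UMIs. Calls of the difference were 2106 lower and 4522 higher, and 3886 and 2537 under TMM, 3423 and 3035 without those 2 genes, 1380 and 3154 with DESeq2 and total UMIs, 2392 and 2015 with median-of-ratios and 1071 and 2715 without the replicate block. The block changed no call of a member. The cause of these changes was not tested. Rn7s1, Rn7s2 and Rpph1 rest on 2 to 84 UMIs per library outside the fRIP input of plate 4, which limits their precision.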

Other observations

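Ccdc107, the protein-coding gene opposite Rmrp, was high in the fRIP input of plate 4, like the detected members. On fRIP plates 3, 5 and 6 it was higher in the IP than in the input, with 309, 1155 and 387 UMIs against 185, 295 and 239 (log2 fold change 0.80, SE 0.08, adjusted p = 8.19e-21 in edgeR). Plate 5 carried most of this, with 54.45 CPM in the IP and 21.35 in the input, against 17.43 and 12.03 on plate 3 and 21.41 and 17.54 on plate 6. In UV-RIP it was at -0.43 (SE 0.07), under the 1.5-fold limit, and the difference of the fold changes was 1.24 (SE 0.11, adjusted p = 6.77e-28), which includes plate 5. The model's SEs and p-values for Ccdc107 do not measure the spread between plates, and no exact test over plates was run for this gene. It was named after its values were seen, its difference from the members was not tested, and how many of its UMIs come from the bases shared with Rmrp was not tested.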
